A study of Mus musculus with 6 samples.

Results

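The 41 genes described here encode the control machinery of the cell cycle, the cyclins, the cyclin-dependent kinases (CDKs) with their inhibitors, activators and small CKS subunits, the retinoblastoma (Rb) and E2F families, and the Myc network. They were taken by symbol from the 24975 genes of the count table, in which each had 1 row. Of the 41, 38 were expressed enough to be tested, among 11913 tested genes in all. The question was whether lower cyclin D transcripts in mesoderm made to express a Hedgehog pathway repressor came with a change elsewhere in this machinery.

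RNA was sequenced from mouse mesoderm cells sorted at embryonic day 7.5 from embryos of 2 genotypes, in 3 libraries each. Control embryos were Mesp1-Cre/+;R26-tdTomato/+, and the others were Mesp1-Cre/+;R26-Gli3R-IRES-Venus/+, in which Cre driven by Mesp1, a gene of the nascent mesoderm, switched on Gli3R, the form of the Hedgehog pathway factor Gli3 that represses. All groups thus carried Mesp1-Cre, embryos were pooled with their littermates, 1000 cells went into each library, and each of 3 litters gave 1 library per genotype. Control cells were sorted on tdTomato and Gli3R cells on Venus, per the notes in the count file, so an effect of Gli3R cannot be told apart from one of the reporter or the gate.

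As background, mitogens and morphogens act on the cycle mainly in G1, where D cyclins bind CDK4 and CDK6 and phosphorylate the Rb family proteins. This releases E2F factors, which drive genes of the G1/S transition and DNA synthesis, among them the E and A cyclins. CDK inhibitors hold the kinases back, and later CDK1 with cyclin B, freed by CDC25 phosphatases from the brake set by WEE1, starts mitosis. Ccnd1, Ccnd2 and Mycn are known in other tissues as genes that Hedgehog signalling induces.

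Library totals ran from 5481190 to 12635151 counts, so that 1 count stood for 0.0777 to 0.186 CPM (counts scaled to a common library total, corrected by trimmed means). The 41 genes took 0.520%, 0.533% and 0.525% of the counts in the control libraries of litters 1, 2 and 3. In the Gli3R libraries they took 0.511%, 0.510% and 0.502%. These shares did not overlap between the groups, and the difference was not tested. Gli3, part of which the transgene carries, had levels of 25.8, 29.5 and 34.4 CPM in the control libraries of litters 1, 2 and 3, and of 43.6, 39.0 and 50.9 CPM in the Gli3R libraries (log2 fold change 0.57 ± 0.15, which did not pass). Among Hedgehog target genes, Ptch1 was at 2.04, 3.66 and 2.92 CPM in control and 0.62, 1.03 and 0.77 CPM in Gli3R libraries. Its log2 fold change of -1.89 did not pass with or without the litter term (unadjusted p under 0.05 without it, edgeR quasi-likelihood test). Gli1 and Hhip, too low to test, had 44 and 40 control reads against 12 and 4 Gli3R reads. All 14 mesoderm markers listed passed the expression filter, with a summed level of 372 to 415 CPM in control and 366 to 415 CPM in Gli3R libraries; 0 passed without the litter term and T, the brachyury gene, was lower with it (10 at an unadjusted p under 0.05, 8 of them lower, edgeR quasi-likelihood test). The summed level of 10 epiblast and ectoderm markers was 149 to 269 CPM in control and 141 to 155 CPM in Gli3R libraries. Of the 7 tested, 0 passed without the litter term and Cdh1 was lower with it (edgeR quasi-likelihood test). An unadjusted p under 0.05 was reached by 4 of these 7, all lower, and by 6.85% of all tested genes. Sums of 10 endoderm markers (12.6 to 40.1 and 14.1 to 52.2 CPM) and of 8 primitive erythroid markers (207 to 459 and 218 to 831 CPM) overlapped between the groups, and no listed marker was at 0 in every library. Control replicate 1, the shallowest library, lay apart on the first principal component (-39.8, against -2.25 to 19.2 for the others).

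Ccnd1, the cyclin D1 gene, fell with Gli3R, and it was the only one of the 38 tested genes to pass without a litter term (edgeR quasi-likelihood test, adjusted p = 0.0264 by the Benjamini-Hochberg method over all tested genes, at a threshold of 0.05). Cdkn1c, the gene of the CDK inhibitor p57, was higher in each litter and rose in the fit with litter as a block (adjusted p = 0.0238), while it did not pass without the block (0.338). Over all tested genes, 0.134% passed without the block and 0.227% with it, against 1 and 2 of 38 here. The count of members that passed at an unadjusted p under 0.05 was 7, namely Ccnd1, Cdkn1c, Ccnd2, Mycn, Skp2, Ccne1 and Ccnb1, 6 of them lower and Cdkn1c higher; of all tested genes, 6.85% did so. The median log2 fold change (Gli3R over control) of the 38 was -0.09, beside -0.01 for all tested genes. Of the 38 estimates, 27 lay below 0, beside 6178 of those of all 11913 tested genes.

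**Figure D1:**
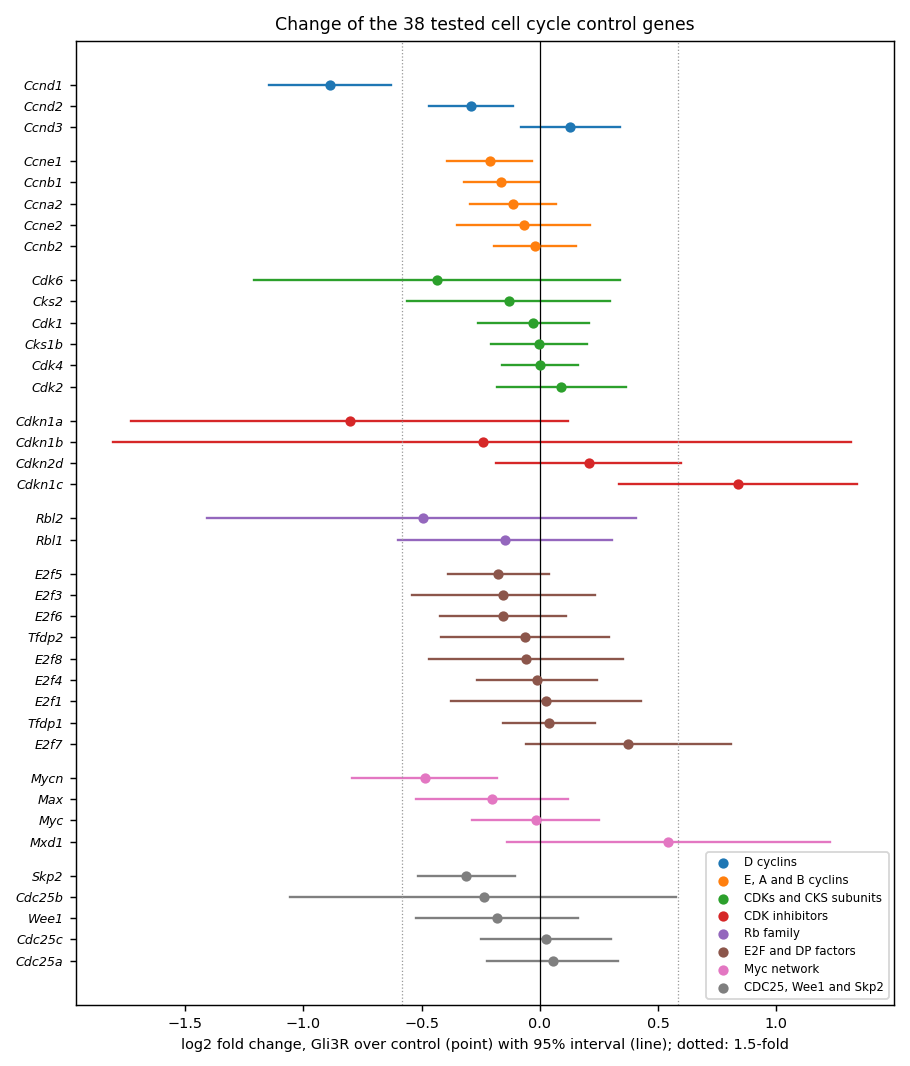
Log2 fold change of each of the 38 tested genes, Gli3R over control (points, x axis), with its 95% interval (lines), coloured by role; dotted lines mark a 1.5-fold change either way. Ccnd1 lies at -0.89 and Cdkn1c at 0.84, while the intervals of 26 genes lie wholly between the dotted lines.

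Most other genes were measured closely enough to bound a change. For 26 of the 38, the 95% interval of the fold change lay within 1.5-fold in either direction, as it did for 6574 of the 11913 tested genes. Among the 26, the intervals of Ccnd2, Skp2, Ccne1 and Ccnb1 lay wholly below a log2 fold change of 0. The other 12 were Ccnd1, Cdkn1c and Mycn, whose estimates stood apart from 0, and Cdk6, Cdkn1a, Cdkn1b, Cdkn2d, Rbl1, Rbl2, E2f7, Mxd1 and Cdc25b, whose mean levels were at most 21.4 CPM. A change above 1.5-fold was not bounded for these.

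The D cyclin genes differed in the size and sign of their estimates. Ccnd1 (Entrez gene 12443) had control levels of 93.0, 90.8 and 87.9 CPM in litters 1, 2 and 3, and Gli3R levels of 51.7, 54.0 and 40.8 CPM. The 3 control values lay close together and every Gli3R value was far below them. The means were 90.6 ± 2.54 and 48.8 ± 7.03 CPM (SD, n = 3 each), a 1.85-fold fall with a log2 fold change of -0.89 ± 0.12 (SE; 95% interval -1.15 to -0.63). Ccnd2, the cyclin D2 gene (12444), stood at 273, 243 and 258 CPM in control and 216, 215 and 201 CPM in Gli3R libraries. Here too the groups did not overlap, but the difference was smaller, at -0.29 ± 0.08, and missed the threshold (adjusted p = 0.353 in the edgeR quasi-likelihood test). Ccnd3, the cyclin D3 gene (12445), stood at 183, 178 and 198 CPM in control and 193, 192 and 227 CPM in Gli3R libraries. Its groups overlapped, and its log2 fold change of 0.13 ± 0.09 (95% interval -0.08 to 0.34) did not pass.

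The log2 ratio of Ccnd1 to Ccnd2 reads within a library, which does not depend on depth or scaling, was -1.55, -1.42 and -1.55 in control and -2.06, -1.99 and -2.30 in Gli3R replicates 1, 2 and 3. All Gli3R ratios lay below all control ratios, by 0.61 on average, which gave p = 0.1 in a two-sided exact permutation test, the smallest that 3 against 3 libraries allow (0.15 adjusted over 3 such ratios). Per kilobase of exon, Ccnd1 made up 17.5% ± 0.91 of the transcripts of the D cyclin genes in control and 10.3% ± 1.85 in Gli3R libraries. Ccnd3 made up the most in each library, with 54.9% ± 1.70 in control and 65.1% ± 3.73 in Gli3R libraries. The sum of the D cyclin levels was 139 ± 4.94 and 128 ± 5.22 CPM per kb (SD, n = 3), and its ranges of 133 to 143 and 125 to 134 overlapped. Summed in CPM, without the length correction, the ranges of 512 to 549 in control and 460 to 470 in Gli3R libraries did not overlap.

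**Figure D2:**
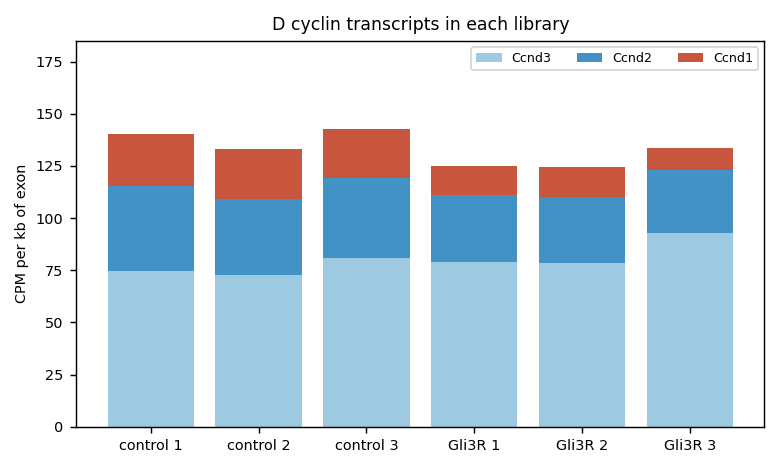
Stacked levels of Ccnd3, Ccnd2 and Ccnd1 in each library, in CPM per kb of exon (y axis). The Ccnd1 part takes 16.4% to 18.2% of the bar in the control libraries and 8.15% to 11.6% in the Gli3R libraries.

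The call on Ccnd1 depended on which library was left out. It held without control replicate 1 (adjusted p = 0.0320, edgeR quasi-likelihood test). Without control replicate 2 or 3 or without Gli3R replicate 1, 2 or 3 it missed the threshold (edgeR quasi-likelihood test, adjusted p = 0.197, 0.0629, 0.0788, 0.117 and 0.0715), with log2 fold changes of -0.96 to -0.78 over the 6 fits that leave out a library. The exons of Ccnd1 overlap those of Oraov1 (also named Lto1) on the opposite strand in 818 bases in GENCODE M21, and strand-blind reads of that stretch cannot be told apart. Oraov1 itself stood at 9.65, 10.5 and 9.01 CPM in control and 8.70, 13.6 and 13.0 CPM in Gli3R libraries and did not pass. The sum of epiblast and ectoderm markers was 269, 176 and 149 CPM in control replicates 1, 2 and 3, where Ccnd1 stood at 93.0, 90.8 and 87.9 CPM. Both ran in the same order, the marker sum over a wider range. The part of these markers in the difference between the groups was not tested. In such bulk libraries, fewer cells of a type and less RNA per cell cannot be told apart.

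Among the partner kinases and CKS subunits, 0 of 6 tested genes passed with or without the litter block or by DESeq2, and 0 had an unadjusted p under 0.05 in the edgeR quasi-likelihood test. Cdk4 (12567), the kinase that D cyclins bind, stood at 1044, 1136 and 1137 CPM in control and 1143, 1110 and 1065 CPM in Gli3R libraries. The groups overlapped, with a 95% interval of the log2 fold change from -0.16 to 0.16. Cdk6, the other D cyclin kinase, was barely present, at 2.60, 3.46 and 5.58 CPM in control and 3.65, 2.56 and 2.30 CPM in Gli3R libraries (-0.43 ± 0.34, and -0.09 without control replicate 3). Per kilobase of exon, the mean control level was 539 CPM for Cdk4, 99.0 for Cdk1, the mitotic kinase, 25.6 for Cdk2, which works with cyclins E and A, and 0.34 for Cdk6. Log2 fold changes were -0.03 ± 0.10 for Cdk1 and 0.09 ± 0.12 for Cdk2. Those of Cks1b and Cks2, which help CDKs bind their substrates, were -0.00 ± 0.09 and -0.13 ± 0.19. Cks2 stood at 325 CPM in control replicate 1 and 282 CPM in Gli3R replicate 3 against 194 to 209 CPM elsewhere, so 1 library in each group was high. The exons of Cdk4 overlap those of Tspan31 on the opposite strand in 641 bases, and 29.7% of the 50-base words of Cks2 also occur in transcripts of the gene Gm15452, so reads of these parts are uncertain.

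Of the E, A and B cyclin genes, 0 of 5 passed with or without the litter block or by DESeq2 (2 at an unadjusted p under 0.05 in the edgeR quasi-likelihood test). Ccne1, the cyclin E1 gene of the G1/S transition (12447), stood at 178, 198 and 180 CPM in control and 166, 159 and 155 CPM in Gli3R libraries. The groups did not overlap, at a log2 fold change of -0.21 ± 0.08 (adjusted p = 0.642 in the edgeR quasi-likelihood test). Ccnb1, the mitotic cyclin B1 gene and the most abundant of the 5 in reads (268697), stood at 550, 547 and 522 CPM in control and 485, 495 and 466 CPM in Gli3R libraries. These groups did not overlap either, at -0.16 ± 0.07; 18.9% of its 50-base words also occur in the transcripts of its pseudogene Ccnb1-ps. Log2 fold changes of Ccne2, the other cyclin E gene (-0.07 ± 0.13), Ccna2, the cyclin A gene of S and G2 phase (-0.11 ± 0.08), and Ccnb2, the mitotic cyclin B2 gene (-0.02 ± 0.08), were smaller, and their groups overlapped.

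Of the inhibitor genes, 1 passed, in the fit with the litter block. Cdkn1c (12577), which encodes p57 and is known as an imprinted gene, stood at 40.8, 61.8 and 70.3 CPM in control and 79.1, 96.6 and 137 CPM in Gli3R replicates 1, 2 and 3. Litter 1 was the lowest and litter 3 the highest in both groups, and each Gli3R library exceeded every control library. The means were 57.6 ± 15.2 and 104 ± 29.5 CPM (SD, n = 3), and the log2 difference within litters was 0.95, 0.65 and 0.96. The log2 fold change was 0.84 ± 0.22 without the block (adjusted p = 0.338) and 0.85 ± 0.10 with it (adjusted p = 0.0238, edgeR quasi-likelihood test). By DESeq2 without a block Cdkn1c also rose (adjusted p = 0.00779), and over all alternatives its estimate ran from 0.60, without Gli3R replicate 3, to 1.01, without Gli3R replicate 1. The exons of Cdkn1c overlap those of Gm44732 on the opposite strand in 422 bases.

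**Figure D3:**
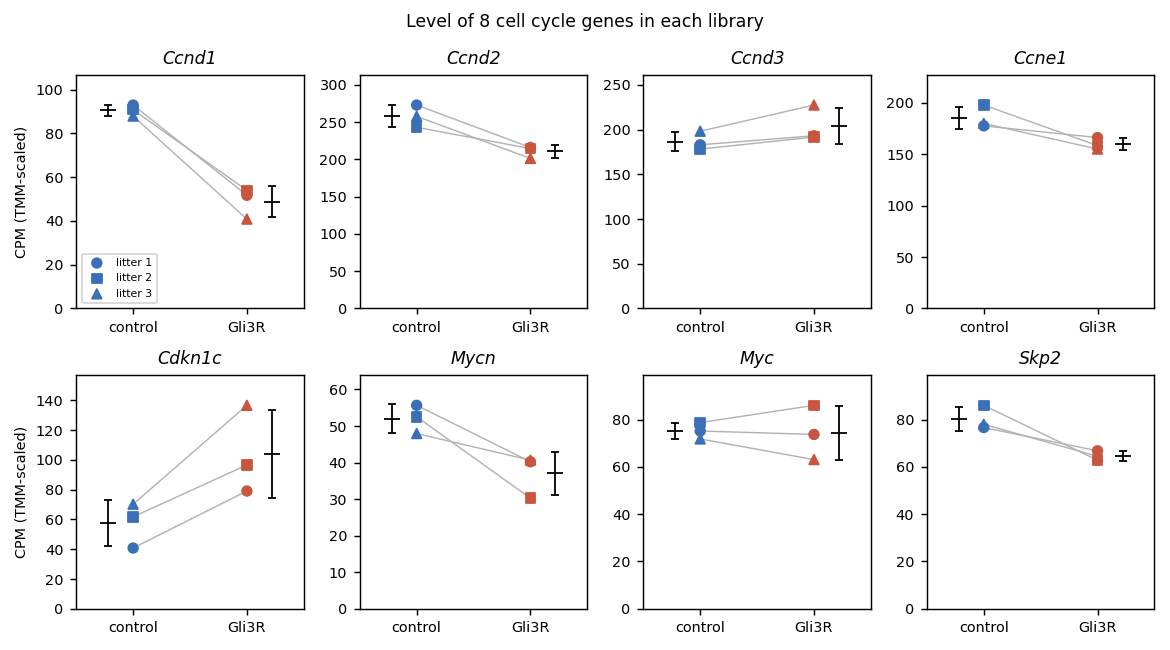
CPM (y axis, from 0) of 8 cell cycle genes in the control (blue) and Gli3R (red) library of each litter, joined by lines, with the group mean and SD (n = 3) beside the points. The Gli3R libraries lie below the control libraries for Ccnd1, Ccnd2, Ccne1, Mycn and Skp2 and above them for Cdkn1c, while the groups overlap for Ccnd3 and Myc.

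Of the other inhibitors, none passed in any fit run. Cdkn1a, the p21 gene that p53 induces, stood at 7.61, 4.62 and 2.54 CPM in control and 3.65, 2.31 and 1.99 CPM in Gli3R libraries, or -0.80 ± 0.41 with overlapping groups. It was lower in each litter, by -1.06, -0.98 and -0.33 on the log2 scale. With the litter block its log2 fold change was -0.86 ± 0.28 (adjusted p = 0.383, edgeR quasi-likelihood test). Its estimate was -0.40 without control replicate 1 and -1.14 without Gli3R replicate 1. Cdkn1b, the p27 gene, was close to the limit of detection, at 2.60, 1.44 and 0.38 CPM in control and 0.62, 0.77 and 2.45 CPM in Gli3R libraries, so that its interval reached from -1.80 to 1.31. The log2 ratio of Cdkn1c to Cdkn1b reads differed by 0.95 between the groups, with p = 0.6 in a two-sided exact permutation test, and by 0.11 without control replicate 1. Cdkn2d, the p19INK4D gene, stood at 15.4, 19.9 and 24.0 CPM in control and 20.3, 24.6 and 24.2 CPM in Gli3R libraries (0.21 ± 0.17, and 0.07 without control replicate 1). Cdkn2c, the p18INK4C gene, had 2 reads in all control and 13 in all Gli3R libraries and was not tested; the ratio of 5.66 has a 95% exact binomial interval from 1.28 to 51.6, for counting error alone. Cdkn1c thus had the highest level of the 5 inhibitors, at 29.7 CPM per kb in control against 13.4 for Cdkn2d, 1.81 for Cdkn1a, 0.32 for Cdkn1b and 0.03 for Cdkn2c.

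Rb family transcripts were sparse, and neither of the 2 tested passed with or without the litter block or by DESeq2, nor at an unadjusted p under 0.05. Rbl1, the p107 gene and the most abundant of the family, stood at 15.4, 10.7 and 13.95 CPM in control and 12.3, 13.8 and 9.51 CPM in Gli3R libraries. The groups overlapped, at -0.15 ± 0.20. Rbl2, the p130 gene, stood at 1.11, 1.83 and 1.78 CPM in control and 1.16, 0.77 and 1.53 CPM in Gli3R libraries (-0.49 ± 0.40, and -0.29 without Gli3R replicate 2). Rb1 itself had 32 reads in each group and was not tested; its ratio of 0.87 has an interval of 0.52 to 1.47 for counting error.

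Factors of the E2F and DP families showed no call: 0 of 9 tested passed with or without the litter block or by DESeq2, and 0 had an unadjusted p under 0.05 in the edgeR quasi-likelihood test. Their median log2 fold change was -0.06, with a range of -0.18 to 0.37. Tfdp1, the DP1 gene that pairs with E2F proteins and the most abundant of them in reads, stood at 147, 163 and 163 CPM in control and 169, 168 and 149 CPM in Gli3R libraries, with a 95% interval of the log2 fold change from -0.16 to 0.23. Of its 50-base words, 16.8% also occur in transcripts of Gm7390, so reads of these parts are uncertain. E2f7, which encodes an atypical E2F that represses, had the smallest p of the group and stood at 6.68, 8.27 and 9.39 CPM in control and 10.3, 11.8 and 9.67 CPM in Gli3R libraries. Its groups did not overlap, although in litter 3 they differed by only 0.04 on the log2 scale (0.37 ± 0.19, adjusted p = 0.811). Log2 fold changes were -0.16 ± 0.17 for the activator gene E2f3 and nearer 0 for the activator gene E2f1 (0.03 ± 0.18) and for E2f8 (-0.06 ± 0.18), Tfdp2 (-0.06 ± 0.16) and the repressor gene E2f4 (-0.01 ± 0.11). The groups of the repressor gene E2f5 did not overlap, at -0.18 ± 0.10 (-0.08 without control replicate 1), and those of E2f6, at -0.15 ± 0.12, did. E2f2, with 27 reads in each group, was not tested. Per kilobase, the levels in control libraries were 66.0 CPM for E2f5, 62.8 for Tfdp1 and 57.1 for E2f4, against 3.41 for E2f1 and 2.50 for E2f3.

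Of the Myc network, 0 of 4 passed with or without the block or by DESeq2 (Mycn at an unadjusted p under 0.05), and the 2 Myc genes differed in their estimates. Mycn, the N-Myc gene (18109), stood at 55.7, 52.5 and 47.9 CPM in control and 40.2, 30.2 and 40.7 CPM in Gli3R libraries. The groups did not overlap, and the difference within litters was -0.47, -0.79 and -0.24. Its log2 fold change of -0.49 ± 0.14 did not pass over all genes (adjusted p = 0.379, and 0.254 with the block, edgeR quasi-likelihood test), with 0.164 to 0.946 over the alternatives. Myc (17869), at 75.1, 78.7 and 71.8 CPM in control and 73.7, 86.0 and 63.1 CPM in Gli3R libraries, had a log2 fold change of -0.02 ± 0.12 (95% interval -0.29 to 0.25). The log2 ratio of Mycn to Myc reads was -0.43, -0.58 and -0.58 in control and -0.87, -1.51 and -0.63 in Gli3R libraries, lower by 0.47 (two-sided exact permutation p = 0.1, the smallest possible), and by 0.22 without Gli3R replicate 2. Max, the shared partner of Myc proteins, stood at -0.20 ± 0.14, and Mxd1, which competes with Myc for Max, at 2.30 ± 0.55 against 3.42 ± 0.63 CPM (0.54 ± 0.30).

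Skp2 (27401), the ubiquitin ligase subunit that marks p27 for breakdown, stood at 76.6, 86.0 and 78.0 CPM in control and 66.8, 62.8 and 64.4 CPM in Gli3R libraries. The groups did not overlap, at a log2 fold change of -0.31 ± 0.09 (adjusted p = 0.415, edgeR quasi-likelihood test). The phosphatase genes Cdc25a (0.05 ± 0.12), Cdc25b (-0.24 ± 0.36) and Cdc25c (0.03 ± 0.12) and the kinase gene Wee1 (-0.18 ± 0.15) had overlapping groups. None of these 5 passed with or without the block or by DESeq2. Of the 50-base words of Cdc25c, 11.4% also occur in Gm3550, a copy that the table counts separately.

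Read litter by litter, 17 of the 38 genes differed in the same direction in all 3 litters, 12 lower and 5 higher, as did 30.3% of all tested genes. In 11 of the 38 the groups did not overlap, 8 lower (Ccnd1, Ccnd2, Ccne1, Ccnb1, E2f5, Mycn, Max and Skp2) and 3 higher (Cdkn1c, E2f7 and Mxd1), against 12.0% of all tested genes. None of the 6 kinase and CKS genes was in either set. Cdkn1b and Cks2 differed in opposite directions in litters 1 and 3, by -2.03 and 2.51 and by -0.68 and 0.43.

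**Figure D4:**
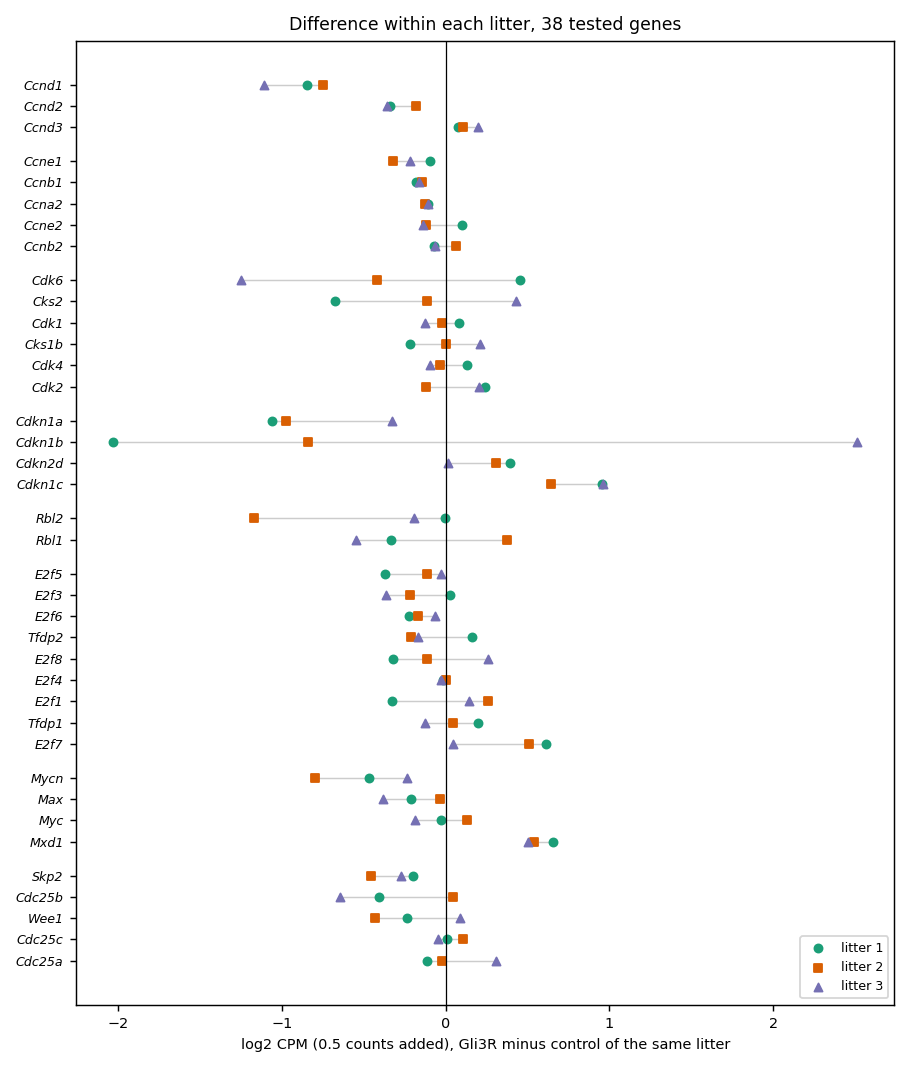
Log2 CPM of the Gli3R library minus that of the control library of the same litter (x axis, 0.5 counts added) for the 38 tested genes, 1 symbol per litter. All 3 symbols of Ccnd1 lie at or left of -0.75 and those of Cdkn1c at or right of 0.65, while those of Cdkn1b spread from -2.03 to 2.51.

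Promoter sequences of 30 of the 41 genes were used. Of these, 4 are shown because they hold letters of the elements that E2F and other cell cycle factors are known to bind. They are the 250 bases before the start site from RefSeq (GRCm38.p6), 5′ to 3′ on the gene's strand, at chr12:12941837-12942086 (minus strand) for Mycn, chr10:69352913-69353162 (minus strand) for Cdk1, chr9:109875329-109875578 (plus strand) for Cdc25a and chr9:70421555-70421804 (minus strand) for Ccnb2. Capitals mark, on either strand, the E2F words TTTCCCGC, TTTCGCGC, TTTGCCGC and TTTGGCGC, the cell cycle homology region (CHR) words TTTGAA and TTCGAA, and the CCAAT box.
Mycn: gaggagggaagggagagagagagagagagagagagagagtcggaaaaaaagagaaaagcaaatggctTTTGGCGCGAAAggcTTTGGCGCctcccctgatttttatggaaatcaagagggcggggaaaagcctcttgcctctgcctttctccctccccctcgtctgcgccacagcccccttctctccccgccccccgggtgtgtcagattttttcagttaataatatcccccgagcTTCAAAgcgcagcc
Cdk1: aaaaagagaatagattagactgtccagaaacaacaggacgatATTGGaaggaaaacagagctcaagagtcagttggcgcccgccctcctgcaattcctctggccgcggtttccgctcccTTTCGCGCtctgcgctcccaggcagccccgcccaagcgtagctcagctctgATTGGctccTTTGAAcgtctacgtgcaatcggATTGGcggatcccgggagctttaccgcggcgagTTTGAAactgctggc
Cdc25a: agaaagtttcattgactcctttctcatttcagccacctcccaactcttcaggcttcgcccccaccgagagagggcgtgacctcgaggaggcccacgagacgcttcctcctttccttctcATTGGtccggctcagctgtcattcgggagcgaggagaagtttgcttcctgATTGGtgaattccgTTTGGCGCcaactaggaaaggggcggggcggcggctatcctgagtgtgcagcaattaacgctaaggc
Ccnb2: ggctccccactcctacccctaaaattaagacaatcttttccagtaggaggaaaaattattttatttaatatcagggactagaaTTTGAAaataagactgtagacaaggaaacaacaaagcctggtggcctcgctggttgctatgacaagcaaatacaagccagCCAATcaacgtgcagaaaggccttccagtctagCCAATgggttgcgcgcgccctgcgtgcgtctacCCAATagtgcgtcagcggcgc

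An E2F word was present in 9 of the 38 windows of these genes (23.7%), against 1.86% of 32851 windows in the whole table. The genes were Cdc25a, Cdk1, Cdk2, E2f3, E2f7, Mycn, Rbl1 and Tfdp1, of which 0 passed in the fits with or without the block or by DESeq2 (Mycn at an unadjusted p under 0.05). In Mycn, 3 matches began 183, 179 and 168 bases before the start, of which the first and the second overlap. A CHR word was in 9 windows (23.7%, against 17.1% of all) and a CCAAT box in 18 (47.4%, against 33.9%). The E-box CACGTG, the word that Myc and Max bind, was in 4 windows (10.5%, against 6.02%), and the GLI word GACCACCCA in 0 of 38 (against 0.225%). These are matches of letters, not shown sites of binding. No window was used for Ccna2, Ccnd1, Ccnd2, Ccne2, Cdc25c, Cdkn1c, E2f4, E2f5, Myc, Rb1 and Wee1. Any window of the 41 genes on chromosome 18 was left out, a limit that was not set for the 32851 windows.

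Beyond these genes, 181 others of the cycle in 8 lists were read, of which 174 were tested. Of these, 0 passed in any of the 13 fits run, edgeR and DESeq2 included. In the edgeR quasi-likelihood test without the block, 13 of the 174 had an unadjusted p under 0.05, beside 6.85% of all tested genes. Of these 13, 10 were lower. The median log2 fold change of the 174 was -0.06, beside -0.01 for all tested genes. Estimates below 0 numbered 122 of the 174, beside 6178 of all 11913 tested genes. Of 38 DNA replication genes, 30 estimates lay below 0 (median -0.08, range -0.34 to 0.12). The smallest p-values were those of Gins3, a subunit of the replicative helicase (-0.34 ± 0.12), and of Mcm2 (-0.20 ± 0.08) and Mcm3 (-0.16 ± 0.09) of the same machine. Rrm2, of the enzyme that makes deoxynucleotides, had the highest level, at 655 ± 44.5 and 596 ± 30.3 CPM (-0.14 ± 0.08). For 37 of the 38 the 95% interval lay within 1.5-fold. The same held for all 31 mitosis genes (median -0.07, range -0.23 to 0.13), among them the kinase genes Aurka (-0.19 ± 0.08) and Bub1b (-0.23 ± 0.11), the kinesin gene Kif20a (-0.18 ± 0.09) and Birc5, the survivin gene (0.00 ± 0.08).

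The lists of other regulators also held no gene that passed. In the DREAM, MYB and FOXM1 list (7 tested, median 0.03), Lin52 stood at -0.34 ± 0.14, Mybl2 at 0.08 ± 0.10 and Rbbp4 at -0.07 ± 0.09. Among 26 other cyclin, CDK and inhibitor genes (median 0.05), Ccng2, the gene of a cyclin linked to arrest, stood at 10.5 ± 2.21 and 17.4 ± 6.17 CPM (0.68 ± 0.28), Cdk13 at 0.47 ± 0.25, Ccnl1 at -0.17 ± 0.10 and Cdk7 at 0.06. Of 8 further Myc network genes (median -0.02), the Max partner gene Mxd4 stood at 2.81 ± 0.54 and 5.06 ± 1.29 CPM (0.81 ± 0.30), Mycl at -0.31 ± 0.28, Zbtb17 at -0.06 ± 0.19 and Mxd3 at -0.04 ± 0.20. Among 24 ubiquitin ligase genes (median -0.02), Btrc stood at -0.31 ± 0.13, the anaphase-promoting complex genes Cdc23 and Anapc2 at -0.17 ± 0.07 and 0.22 ± 0.15, and Skp1a at -0.05. Of 19 p53 and checkpoint genes (median -0.15, 16 below 0), Pmaip1, the cell death gene Noxa, stood at 24.4 ± 2.30 and 35.5 ± 4.97 CPM (0.54 ± 0.14, adjusted p = 0.332 in the edgeR quasi-likelihood test), Gadd45a at -0.44 ± 0.23, Phlda3 at 0.39 ± 0.21 and Bax at -0.04.

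The list of growth genes linked to Myc, mostly of ribosome biogenesis, had 19 of 21 estimates below 0 (median -0.12, range -0.39 to 0.07). Of all 11913 tested genes, 6178 lay below 0. The members of the growth list with the smallest p were Polr1b, of RNA polymerase I (-0.39 ± 0.14), the chaperonin gene Hspd1 (-0.22 ± 0.08) and Odc1, of polyamine synthesis (-0.17 ± 0.07). Ldha, of glycolysis and the most abundant, stood at 3451 and 3323 CPM (-0.05). Summed over the list, the level was 13602 to 14129 CPM in control and 12655 to 13136 CPM in Gli3R libraries. The groups of sums did not overlap, with means of 13929 ± 285 and 12952 ± 260 CPM (SD, n = 3). The sums for DNA replication (5899 to 6222 and 5555 to 5876 CPM) and ubiquitin ligases (3379 to 3527 and 3327 to 3368 CPM) also did not overlap. Those for mitosis (4921 to 5403 and 4802 to 5150 CPM) and the remaining lists overlapped. By role, sums of the D cyclins, the E, A and B cyclins, the Myc network, and CDC25, Wee1 and Skp2 were lower without overlap. That of the inhibitors was higher (66.4 to 97.4 and 104 to 166 CPM), and those of the other roles overlapped. Single genes held much of some differences. Inhibitor sums had means of 83.9 (control) and 132 CPM (Gli3R), and Cdkn1c alone 57.6 and 104. The means of Cdkn1a and Cdkn1b were lower with Gli3R. Myc network sums had means of 145 and 128 CPM, and Mycn alone 52.0 and 37.0. For CDC25, Wee1 and Skp2 the means were 174 and 157 CPM, and for Skp2 alone 80.2 and 64.7. None of these sums was tested.

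**Figure D5:**
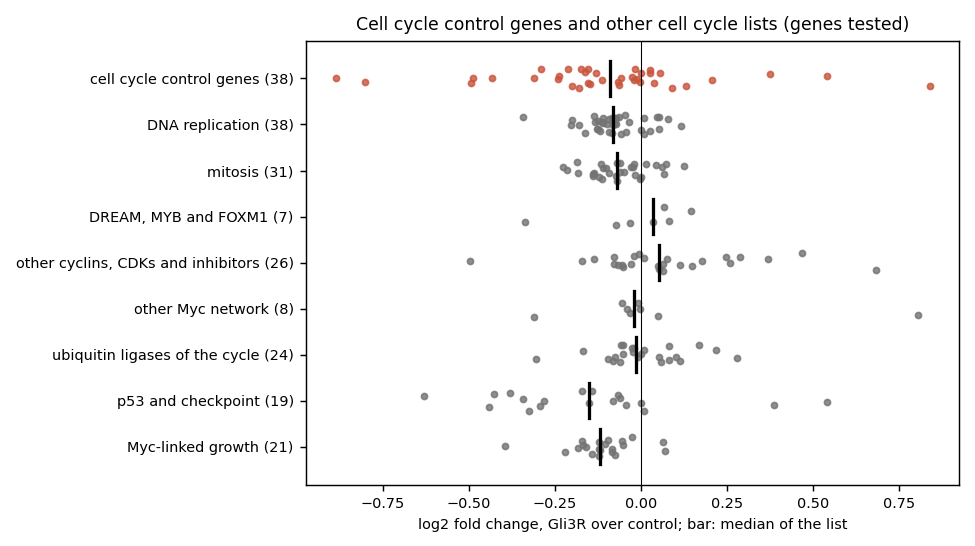
Log2 fold change, Gli3R over control (x axis), of the tested members of the cell cycle control genes and of 8 other lists (1 point per gene, number tested in brackets), with the median of each list as a bar. List medians run from -0.15 to 0.05, and Ccnd1 at -0.89 and Cdkn1c at 0.84 lie outermost.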

How the data were processed

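The authors deposited raw counts per Entrez gene for 6 libraries, 1 column each. The build mm9 and the tools TopHat2 2.0.14, FastQC, edgeR, featureCounts and Subread 1.4.6 are listed, without roles, in the submitters' processing notes. The annotation, the strand setting and the handling of multiply mapped reads: not given in the sources used here. The SMARTer Ultra Low kit gave cDNA and Nextera XT the libraries, per the labels' protocols.

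Counts were analysed in R 4.3.3. Low genes were removed by edgeR 4.0.16 (filterByExpr, with a minimum count of 10). TMM factors set the scale, and groups were compared with the edgeR quasi-likelihood test, two-sided, without a litter term, with Benjamini-Hochberg adjustment over all tested genes and a threshold of 0.05. Standard errors and 95% intervals come from the fitted model's information and quasi-dispersion. Fits were tested on simulated data. Exon lengths, overlaps and shared 50-base words come from GENCODE M21, another build than the counts, so levels per kb are approximate.

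Pairing comes from the labels, in which control and Gli3R libraries of 1 number share a litter. As a check, the correlation of same-litter deviations across all tested genes was 0.168, 0.187 and 0.0755 for litters 1, 2 and 3, and that of different litters ran from -0.269 to 0.162. Over the 38 tested members, it was 0.04, -0.10 and -0.24 within litters and ran from -0.31 to 0.29 between different litters. The members thus correlated no more within litters than between them. The fit with litter as a block is given where it changes a call. Each library is 1 pool of embryos, and the p-values rest on the spread between such pools. In the edgeR fits, the spread of each gene was moderated with information from all tested genes. Chi-square per gene between libraries (4.12 to 15.2) was well above sampling noise.

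All 41 members are reported by role. Values per library are given for members that passed in either fit, D cyclins, inhibitors, Myc and Mycn and, in each other role, the member with the smallest p and the highest level; for other lists, the 3 with the smallest p and the highest level, and some further values were added after they were seen. The members and lists were chosen with earlier results of these data known. Alternatives were the block, DESeq2 1.42.0, other scalings and filters, and leaving out each library.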

Additional observations from a re-analysis of the deposited data

How the results depend on the processing

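The fit with litter as a replicate block, set by the litters the labels give, called 9 genes higher and 18 lower among all tested, against 3 and 13 without it, and added Cdkn1c as 1 member higher; it changed no other call among the members. DESeq2 called 43 genes higher and 51 lower, with 1 member higher (Cdkn1c). Without a low-count filter, 49 were higher and 59 lower, with 1 member higher (Cdkn1c). Library size alone gave 5 higher, and a minimum of 5 CPM in 3 libraries gave 1 higher. Leaving out 1 library gave 0 to 2 genes higher and 0 to 16 lower, and 0 to 1 member lower: Ccnd1 was called without control replicate 1 and in none of the other 5 fits, and the fit without Gli3R replicate 3 called 0 genes in all. The cause of these changes was not tested. Over all alternatives Ccnd1 stayed below 0, and Ccnd2, Mycn and Skp2 passed in none.

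Estimates near 0 changed sign, and so did those of Cks2, Cdkn1b and Cdc25b, at -0.13, -0.24 and -0.24 in the reported fit. That of Cks1b, -0.00409 in the reported fit, was 0.00123 with DESeq2, 0.00115 with its size factors, 0.00701 with library size alone, 0.00550 without a filter and 0.00392 with the CPM minimum. Leaving out 1 library each, the log2 fold changes ran from -0.0365 to 0.0273 for Cdk4, -0.0598 to 0.0785 for Cks1b, -0.32 to 0.11 for Cks2, -1.01 to 0.29 for Cdkn1b, -0.10 to 0.0710 for E2f4, -0.15 to 0.0780 for E2f8, -0.00581 to 0.0932 for Tfdp1, -0.55 to 0.0704 for Cdc25b, -0.0720 to 0.0840 for Cdc25c, -0.19 to 0.0299 for Ccne2, -0.12 to 0.0344 for Cdk1, -0.0667 to 0.15 for E2f1, -0.18 to 0.0630 for Tfdp2, -0.13 to 0.0841 for Myc, -0.0295 to 0.10 for Cdc25a and -0.0699 to 0.0130 for Ccnb2; the cause was not tested. The exact sign-flip test of the within-litter differences, the block for the ratios, gave 0.25 for Ccnd1 to Ccnd2 and for Mycn to Myc, the smallest it allows, and 0.75 for Cdkn1c to Cdkn1b. Depth limits Cdkn1b, Cdkn2c, Rb1, Rbl2, E2f2, Cdk6 and Mxd1, where 3 counts stand for 0.233 to 0.557 CPM.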
